A study of Mus musculus with 8 samples.

Results

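A set of 10 genes that relay cytokine signals or feed back on them was followed across cultured mouse stem and progenitor cells: Jak2, Stat5a, Stat5b and Stat3, the feedback inhibitors Cish, Socs1, Socs2 and Socs3, and the kinases Pim1 and Pim2. They were chosen by name as mediators and targets of the JAK-STAT pathway, with earlier results of these data known. All 10 were found among the 24346 gene symbols of the deposited tables, and all 10 were among the 12003 genes expressed highly enough to be tested.

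When a cytokine binds its receptor, the attached kinase JAK2 phosphorylates STAT proteins, which move to the nucleus and switch on target genes. Among these targets are the SOCS family genes, whose products block the receptor or the kinase and so close a negative feedback loop, and the Pim genes, which encode serine/threonine kinases that promote survival and growth. In blood stem cells JAK2 and STAT5 relay signals of self-renewal and survival, whereas STAT3 is best known as the relay of IL-6 and G-CSF.

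The study asked which genes of blood stem cells respond to red blood cells (RBCs), and sequenced RNA of wild-type C57BL/6 mouse bone marrow cells that had spent 1 day in culture, either alone or together with RBCs. LSK cells lacked lineage markers (Lin-) and carried both Sca-1 and c-Kit, and hematopoietic stem cells (HSCs) were the narrower gate of LSK cells that were CD150+ and CD48-. The 4 groups were HSCs alone, HSCs with RBCs, LSK cells alone and LSK cells with RBCs, with 2 libraries in each. Every group was grown in serum-free medium with cytokines, stem cell factor (SCF) among them, so all values, controls included, are from cells under cytokine stimulation. The RBCs came from C57BL/6 blood that had been passed through a leukocyte filter and irradiated, and the cultures were cleared of RBCs by lysis and sorted for CD45 before RNA extraction. Cells were gated as HSCs or LSK cells before culture but only on CD45 after it, so progeny of the seeded cells and CD45+ cells brought along with the RBCs cannot be told apart in a library. In such bulk libraries, fewer cells of a type and less RNA per cell cannot be told apart.

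Values are FPKM, in which fragments are divided by transcript length and by depth, so levels of different genes can be compared per unit of length. Differences are log2 fold changes of FPKM + 1 from a limma fit of all 4 groups, which slightly understates the change of genes with low FPKM. A gene passed the test when its p-value, adjusted by the Benjamini-Hochberg method over all 12003 genes, was under 0.05, and was called when it also changed at least 2-fold. The labels do not say whether libraries of a group came from separate mice or cultures, so p-values measure only the spread between these libraries. Depth, estimated from the values themselves, was between 10640000 and 13630000 fragments per library, and the lowest value of any of the 10 genes, 6.76 FPKM of Socs3, corresponded to about 191 fragments and a counting error of 7.23%. Of the genes behind the sort, Kit was at 90.8 to 137 FPKM in all libraries, whereas Ly6a (Sca-1) varied more, from 170 to 719 FPKM. Ly6a went from 388 and 444 FPKM to 719 and 544 FPKM with RBCs in HSCs. In LSK cells it went from 381 and 226 FPKM to 204 and 170 FPKM, and neither change passed. All 8 HSC identity genes tested, Slamf1 (CD150) and Procr among them, were lower in LSK cells than in HSCs without RBCs with an adjusted p under 0.05.

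STAT dimers bind DNA at the palindrome TTCNNNGAA, and the stretches below are shown because the 3 genes they precede, Cish, Socs3 and Pim2, behaved in 3 different ways. The stretches run from 180 bases before the transcription start to 20 bases from it, 5′ to 3′ on the strand of the gene, and are RefSeq sequence of build GRCm38.p6. Capitals mark every match to TTCNNNGAA, a motif that reads the same on both strands.
Cish, chr9:107296479-107296678, plus strand: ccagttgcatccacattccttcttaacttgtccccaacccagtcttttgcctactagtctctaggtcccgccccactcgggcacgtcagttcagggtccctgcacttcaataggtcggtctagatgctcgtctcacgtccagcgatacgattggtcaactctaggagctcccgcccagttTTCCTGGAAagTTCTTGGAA
Socs3, chr11:117969347-117969546, minus strand: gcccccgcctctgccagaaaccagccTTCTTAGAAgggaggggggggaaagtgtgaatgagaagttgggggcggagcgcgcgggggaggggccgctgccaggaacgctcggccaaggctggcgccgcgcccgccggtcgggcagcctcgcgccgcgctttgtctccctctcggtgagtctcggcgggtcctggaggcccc
Pim2, chrX:7878126-7878325, plus strand: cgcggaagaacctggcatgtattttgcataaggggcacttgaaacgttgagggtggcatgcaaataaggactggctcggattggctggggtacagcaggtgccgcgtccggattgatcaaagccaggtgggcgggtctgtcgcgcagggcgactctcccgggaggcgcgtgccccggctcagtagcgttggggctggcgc
Cish carried 2 matches, TTCCTGGAA at its start site (chr9:107296659-107296667) and TTCTTGGAA beginning 11 bases after it (chr9:107296670-107296678). Socs3 carried 1, TTCTTAGAA, beginning 154 bases before the start (chr11:117969512-117969520). Promoter windows of 300 bases, 250 before the start and 50 after, were given for 9 of the 10 genes, in 12 windows since some genes have several, and none was given for Socs2. The motif was found in 2 of the 12 windows, those of Cish and Socs3, and in 8.3% of all 32851 promoter windows of the same length. The stricter form TTCCNGGAA, every match of which is also a match to the first motif, was found in 1.15% of all windows and at the first Cish match. These matches describe letters in a window and do not show that a STAT protein was bound. The genes shown were picked by their values in these data, and a link between the motif and the response was not tested.

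Jak2 (chr19:29251828-29313080, plus strand) was higher with RBCs in every library. In HSCs it was at 17.0 and 16.5 FPKM alone and at 20.2 and 20.9 with RBCs, and in LSK cells at 15.3 and 16.3 alone and at 19.7 and 22.9 with RBCs. The RBC and control libraries did not overlap in either cell type. The log2 fold change was 0.27 ± 0.10 (SE) in HSCs (adjusted p = 0.259) and 0.40 ± 0.10 in LSK cells (adjusted p = 0.0701), neither of which passed. Averaged over both cell types, the RBC effect on Jak2 was 0.34 ± 0.07 and passed, with an adjusted p of 0.0288. The mean effect on Jak2 no longer passed in 9 of 18 alternative settings, 7 of them the omission of a single library.

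Stat3 (chr11:100885098-100939540, minus strand) rose with RBCs in LSK cells. It was at 69.1 and 72.0 FPKM in LSK cells alone and at 89.4 and 88.9 FPKM with RBCs, a log2 fold change of 0.33 ± 0.07 with an adjusted p of 0.0316. In HSCs the values were 67.9 and 63.3 FPKM alone and 71.6 and 73.2 FPKM with RBCs, which did not overlap but differed by 0.14 ± 0.07 with an adjusted p of 0.415. The LSK change was small and lay near the threshold: it passed in 8 of 19 alternative settings, and its adjusted p was 0.0514 when only the LSK libraries were fitted and 0.171 at the highest.

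Stat5a and Stat5b, near-identical neighbours on chromosome 11, showed no detectable response. Stat5a (chr11:100859351-100885169, plus strand) ranged from 32.4 to 38.0 FPKM over all 8 libraries and Stat5b (chr11:100780731-100850724, minus strand) from 22.5 to 29.96 FPKM, with RBC and control libraries overlapping in both cell types. The RBC effect on Stat5a had a 95% confidence interval from -0.14 to 0.29 in HSCs and from -0.13 to 0.29 in LSK cells. For Stat5b the intervals ran from -0.33 to 0.16 and from -0.25 to 0.25. About 11.5% of the 31-base stretches of Stat5a transcripts also occurred in Stat5b and 15.1% of those of Stat5b in Stat5a, so their separate levels depend on how shared fragments were divided. Stat5a and Stat3 overlap by 72 bases at their 3′ ends on opposite strands, and no use of strand is stated for the counting.

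Among the feedback inhibitors, Socs3 rose with RBCs in both cell types, whereas Cish, Socs1 and Socs2 did not pass the test in either. Socs3 (chr11:117966079-117970047, minus strand), whose product inhibits gp130 and G-CSF receptor signaling, was at 6.83 and 6.76 FPKM in HSCs alone and at 12.4 and 12.3 FPKM in HSCs with RBCs. It was at 7.93 and 9.90 FPKM in LSK cells alone and at 24.1 and 28.9 FPKM in LSK cells with RBCs. Each library with RBCs was therefore above every library without them, and the highest values were those of LSK cells with RBCs. The mean FPKM was 1.81 times as high with RBCs in HSCs and 2.98 times as high in LSK cells, where it went from 8.91 ± 1.39 to 26.5 ± 3.40 (SD, n = 2). The log2 fold change was 0.77 ± 0.13 in HSCs (adjusted p = 0.0178), under the 2-fold threshold, and 1.48 ± 0.13 in LSK cells (adjusted p = 0.000687), which was called. The Socs3 result in HSCs no longer passed when any 1 of the 4 HSC libraries was left out, with adjusted p-values from 0.0656 to 0.118, or when all genes above 0 were tested, with 0.0783, while its log2 fold change stayed at 0.76 or above. The LSK result passed under all 19 alternatives.

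Cish (chr9:107296026-107302784, plus strand), the inhibitor induced by STAT5, was the most abundant of the SOCS family in every library. It was at 227 and 237 FPKM in HSCs alone, 226 and 213 FPKM in HSCs with RBCs, 144 and 129 FPKM in LSK cells alone and 151 and 142 FPKM in LSK cells with RBCs. Its RBC effect was -0.08 in HSCs, with a 95% confidence interval from -0.24 to 0.09, and 0.10 in LSK cells, with an interval from -0.07 to 0.26. All 4 LSK values lay below all 4 HSC values. Cish overlaps the antisense gene Gm17041 and the pseudogene Gm17040 on the other strand, and fragments from these would be counted with it if strand was not used.

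Socs2 (chr10:95385362-95417180, minus strand), which limits growth hormone and STAT5 signaling, was at 78.8 and 85.6 FPKM in HSCs alone and at 75.1 and 71.2 FPKM with RBCs. In LSK cells it was at 32.6 and 35.9 FPKM alone and at 37.3 and 31.1 FPKM with RBCs. Both HSC libraries with RBCs were below both without, by 0.17 ± 0.10 on the log2 scale (adjusted p = 0.544), and in LSK cells the groups overlapped. Socs1 (chr16:10782240-10785536, minus strand), the direct JAK inhibitor best known from interferon signaling, was at 14.0 and 17.0 FPKM in HSCs alone, 17.8 and 18.2 FPKM with RBCs, and 14.4 and 12.2 FPKM against 14.6 and 16.7 FPKM in LSK cells. Its RBC libraries were above the controls in both cell types, by 0.21 ± 0.13 and 0.22 ± 0.13, with adjusted p-values of 0.548 and 0.392.

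The Pim kinases moved in opposite directions in LSK cells. Pim2 (chrX:7878262-7883432, plus strand) fell with RBCs in both cell types. HSCs alone had 253 and 236 FPKM of Pim2, and HSCs with RBCs had 118 and 128 FPKM. LSK cells alone had 144 and 137 FPKM, and LSK cells with RBCs had 88.3 and 85.7 FPKM. Every Pim2 value with RBCs was below all 4 values without them. The mean in HSCs with RBCs was 0.503 times that in HSCs alone, a log2 fold change of -0.99 ± 0.07 with an adjusted p of 0.000224, and in LSK cells the ratio was 0.618, a log2 fold change of -0.69 ± 0.07 with an adjusted p of 0.0011. Neither reached the 2-fold threshold, but both passed the test under all 19 alternatives. Of the 12003 genes tested, Pim2 ranked 44 from the lowest change in HSCs.

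Pim1 (chr17:29490753-29496112, plus strand) was at 19.8 and 20.4 FPKM in LSK cells alone and at 35.2 and 32.1 FPKM with RBCs, 1.67 times as high on average. This rise of 0.71 ± 0.09 on the log2 scale passed with an adjusted p of 0.00516, and with 0.0607 it did not pass without the first LSK library with RBCs. In HSCs Pim1 was at 24.5 and 27.8 FPKM alone and at 25.5 and 25.7 FPKM with RBCs, where both RBC values lay between the control values. Its RBC effect in HSCs had a 95% confidence interval from -0.24 to 0.18. Pim1 overlaps the antisense gene Gm26885 on the other strand, which shares 11.1% of its 31-base stretches.

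**Figure D1:**
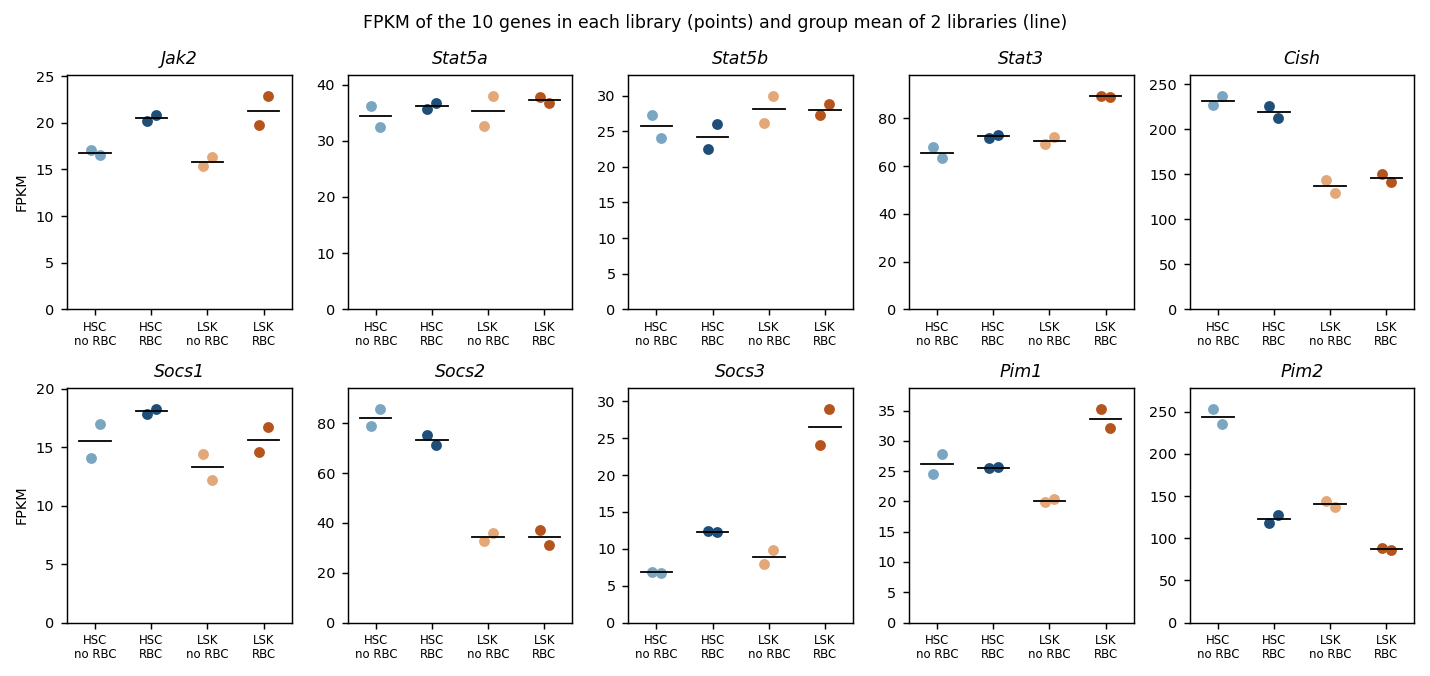
FPKM of each of the 10 genes (y axis, from 0, a scale for each gene) in the 4 groups (x axis); points are the 2 libraries of a group and the line is their mean. Socs3 is higher and Pim2 lower with RBCs in both cell types, Pim1 is higher with RBCs in LSK cells, and Cish and Socs2 are separated by cell type.

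Over the 10 genes, 2 passed the test for RBCs in HSCs (Socs3 and Pim2), where 2.53% of all genes did, and none was called, where 0.775% of all genes were. With limma, 3 of the 10 had an unadjusted p under 0.05 in HSCs, Socs3, Pim2 and Jak2, against 13.7% of all genes, and no other tool was run. In LSK cells 4 of the 10 passed (Socs3, Pim1, Pim2 and Stat3), where 3.45% of all genes did, and Socs3 alone was called, where 1.01% of all genes were. For the mean effect over both cell types, 5 passed (these 4 and Jak2), against 5.37% of all genes, and Socs3 was called, against 0.75%. The mean for Pim1 combined a log2 fold change of 0.71 in LSK cells with -0.03 in HSCs. With the replicate number within each cell type as a block in the fit, the mean effects on Jak2, Stat3 and Pim1 did not pass. For the RBC effect in HSCs the median of the 10 log2 fold changes was 0.02, beside -0.0062 for all genes, and in LSK cells it was 0.16, beside -0.0095.

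An exact two-sided permutation test of 2 libraries against 2 cannot give a p below 0.333. Permuting labels within each cell type, the mean RBC effect had a smallest possible exact p of 0.0556, which was reached by Jak2, Stat3, Socs1, Socs3 and Pim2. These 5 genes are also those whose libraries with RBCs lay beyond the controls in both cell types, 4 of them higher, as were 7.61% of all genes tested, and 1 lower, as were 6.97%.

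The difference between the RBC effects in HSCs and in LSK cells did not pass for any of the 10 genes with limma, where 0.133% of all genes passed and 0.108% were called. It was -0.74 ± 0.13 for Pim1 (HSC effect minus LSK effect, adjusted p = 0.0806), -0.70 ± 0.19 for Socs3 (adjusted p = 0.206) and -0.30 ± 0.10 for Pim2 (adjusted p = 0.277). These were the 3 genes with an unadjusted p under 0.05, which 12.5% of all genes had. All 10 differences had a negative sign, while 6028 of the 12003 genes had a positive one, and those of Stat5a and Socs1 were -0.0051 and -0.01.

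**Figure D2:**
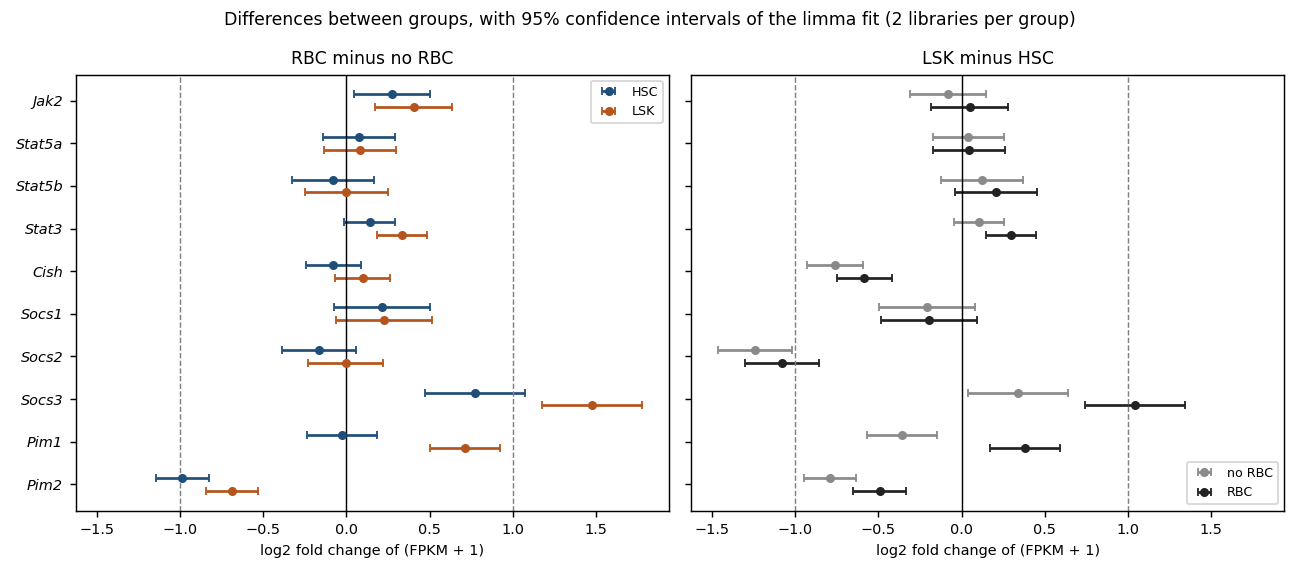
Log2 fold changes of FPKM + 1 (x axis) of the 10 genes with 95% confidence intervals from the limma fit; left, RBC against no RBC in HSCs and LSK cells, right, LSK cells against HSCs without and with RBCs; dashed lines mark 2-fold. The intervals of Socs3, Pim2 and Jak2 exclude 0 in both cell types on the left, although Jak2 did not pass the test in either. Those of Cish, Socs2 and Pim2 lie below 0 on the right.

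Between the cell types, Cish, Socs2 and Pim2 were lower in LSK cells than in HSCs, both without and with RBCs. Without RBCs, Socs2 was 0.416 times as high in LSK cells, with 34.2 ± 2.29 against 82.2 ± 4.80 FPKM (SD, n = 2), a log2 fold change of -1.24 ± 0.10 (adjusted p = 9.46e-05) that was called. Cish differed by -0.76 ± 0.07 (adjusted p = 0.000255) and Pim2 by -0.79 ± 0.07 (adjusted p = 0.000149). Pim1 differed by -0.36 ± 0.09 (adjusted p = 0.0341), which passed in only 8 of 18 alternative settings. These 4 of the 10 genes passed, where 14.2% of all genes did, and Socs2 alone was called, where 2.66% of all genes were. Jak2, Stat3, Stat5a, Stat5b and Socs1 did not pass, with log2 fold changes between -0.21 and 0.12, nor did Socs3 with 0.34 ± 0.13 (adjusted p = 0.128).

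With RBCs, 6 of the 10 genes passed between the cell types, where 24.4% of all genes did, and 2 were called, where 3.61% were. Socs2 was again lower in LSK cells, by 1.08 ± 0.10 on the log2 scale (adjusted p = 0.000133), as were Cish with a log2 fold change of -0.59 ± 0.07 (adjusted p = 0.000794) and Pim2 with -0.49 ± 0.07 (adjusted p = 0.00133). Socs3 was 2.15 times as high in LSK cells, a log2 fold change of 1.04 ± 0.13 (adjusted p = 0.000881). Pim1 stood at 0.38 ± 0.09 (adjusted p = 0.0172), the opposite sign to that without RBCs, and Stat3 at 0.30 ± 0.07 (adjusted p = 0.0128). Both calls rested on the second LSK library with RBCs: without it Socs2 was at -0.95 and Socs3 at 0.91, still with an adjusted p under 0.05 but short of 2-fold. The adjusted p of Pim1 rose to between 0.0767 and 0.112, and that of Stat3 to between 0.0559 and 0.0815, without some of the libraries of these groups.

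The make-up of the families shows the same values as shares. Cish took 57.8% to 63.5% of the summed FPKM of Cish and Socs1 to Socs7 in every library. Socs2 followed in all 8 libraries, with 20.6% to 22.9% in HSCs and 12.7% to 16.7% in LSK cells. Socs3 had 1.91% and 1.81% of this sum in HSCs alone and 3.45% and 3.55% with RBCs, and in LSK cells 3.49% and 4.597% alone and 9.52% and 11.8% with RBCs. By level it ranked 6 of 8 in both LSK libraries without RBCs and 3 of 8 in both with them. Of Pim1, Pim2 and Pim3 together, Pim2 was the most abundant in every library, but its share was smaller with RBCs. It was 84.6% and 83.2% in HSCs alone, 71.4% and 74.0% in HSCs with RBCs, 78.8% and 77.7% in LSK cells alone and 63.0% and 62.6% in LSK cells with RBCs. Stat3 was the most abundant STAT in every library, with 26.4% to 31.4% of the summed STAT FPKM, and Jak2 ranked 3 of the 4 JAKs in every library with 9.87% to 13.6%, Jak1 holding 57.4% to 62.7%.

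**Figure D3:**
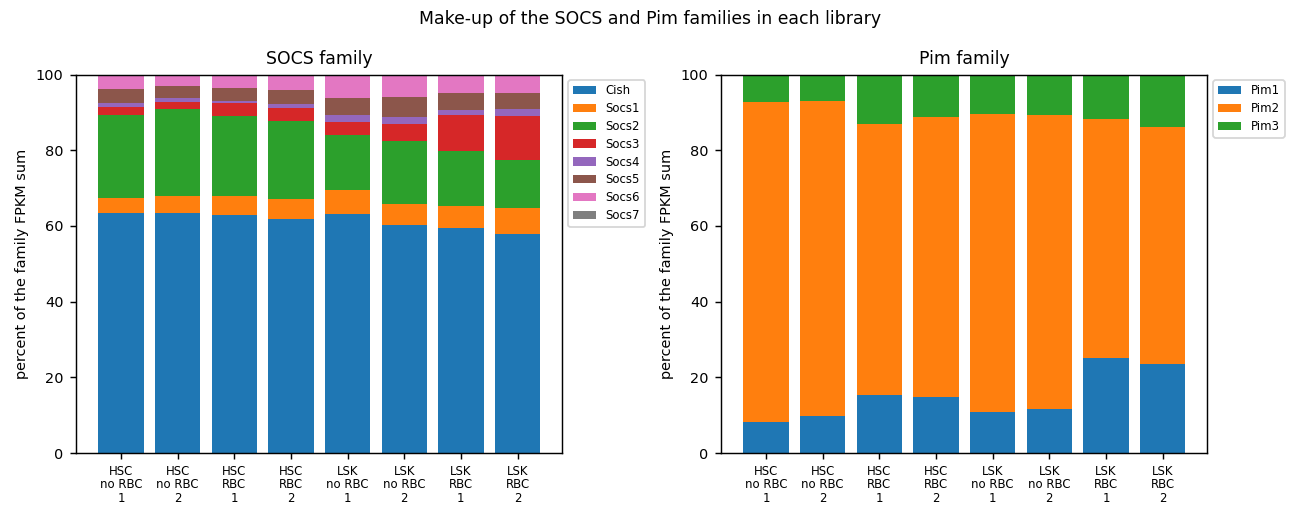
Share of each gene in the summed FPKM of its family (y axis, percent) in each of the 8 libraries (x axis); left, the SOCS family with Cish, right, the Pim family. Cish fills 57.8% to 63.5% of the SOCS bar throughout, the Socs3 segment is widest in LSK cells with RBCs, and the Pim2 segment is smaller in each library with RBCs than in the controls of that cell type.

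The rest of the pathway was read from lists written from general knowledge. None of the 7 other JAKs and STATs passed for RBCs in either cell type, with 1 at an unadjusted p under 0.05 in each, and the largest difference in LSK cells was 0.36 for Stat4. None of Socs4 to Socs7 and Pim3 passed or had an unadjusted p under 0.05. Of 12 phosphatases, PIAS proteins and adaptors that restrain the pathway, none passed, with 1 at an unadjusted p under 0.05 in each cell type and differences within 0.26 in size. In these 3 lists, the median difference was between -0.09 and 0.03. Over all genes tested with limma, 13.7% had an unadjusted p under 0.05 in HSCs, and 2228 of 12003 had one in LSK cells.

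Of 20 tested cytokine receptors, 3 passed in HSCs, where 2.53% of all genes did, and 2 in LSK cells, where 3.45% did, and none was called. The G-CSF receptor gene Csf3r rose in HSCs, from 28.8 and 23.9 FPKM to 45.2 and 42.1 FPKM, by 0.72 ± 0.10 on the log2 scale (adjusted p = 0.00551), and in LSK cells it differed by 0.42 ± 0.10 (adjusted p = 0.0515). The IL-4 receptor chain Il4ra rose by 0.66 in HSCs (adjusted p = 0.0102) and 0.45 in LSK cells (adjusted p = 0.0447), and the interferon gamma receptor chain Ifngr1 by 0.38 in LSK cells (adjusted p = 0.0464). Kit, the SCF receptor, fell by 0.37 in HSCs (adjusted p = 0.0214) and stood at -0.28 in LSK cells (adjusted p = 0.0555). Between the cell types without RBCs, 11 of the 20 receptors passed and 3 were called, all higher in LSK cells. In that comparison 14.2% of all genes passed and 2.66% were called.

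Of 11 STAT3 response genes other than those followed here, 4 passed in HSCs (Fos, Vegfa, Icam1 and Junb) and 5 in LSK cells (Fos, Vegfa, Junb, Bcl3 and Fgl2), each higher with RBCs. The shares over all genes tested were 2.53% in HSCs and 3.45% in LSK cells. The AP-1 factor gene Fos was at 5.10 and 4.34 FPKM in HSCs alone and at 15.7 and 15.2 FPKM with RBCs, and at 3.27 and 1.74 FPKM in LSK cells alone and at 30.9 and 35.3 FPKM with RBCs. Vegfa, an angiogenic factor, went from 15.6 and 17.5 FPKM to 54.5 and 54.6 FPKM in LSK cells. The median log2 fold change of this list was 0.34 in HSCs and 0.55 in LSK cells. With RBCs 8 of the 11 genes were higher in HSCs and 11 in LSK cells. Cebpb, Cebpd, Hif1a, Batf and Ier3 passed in neither. Fos, Junb and Ier3 of this list are also immediate early genes, which many stimuli induce.

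Of 10 tested STAT5 response genes, none passed in HSCs, with 2 at an unadjusted p under 0.05, and 1 passed in LSK cells: Myc, which fell by 0.34 on the log2 scale (adjusted p = 0.0304). Its values were 269 and 281 FPKM in LSK cells alone and 214 and 219 FPKM with RBCs. Among all genes tested, 2.53% passed in HSCs, where 13.7% had an unadjusted p under 0.05, and 3.45% passed in LSK cells. In LSK cells 5 of the 10 had an unadjusted limma p under 0.05, as had 2228 of the 12003 genes tested. The largest difference there was a rise of 0.81 for Bcl6 (adjusted p = 0.0596), from 0.72 and 0.49 FPKM to 1.51 and 2.13 FPKM. Of the 10 genes, 6 were higher with RBCs in LSK cells.

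**Figure D4:**
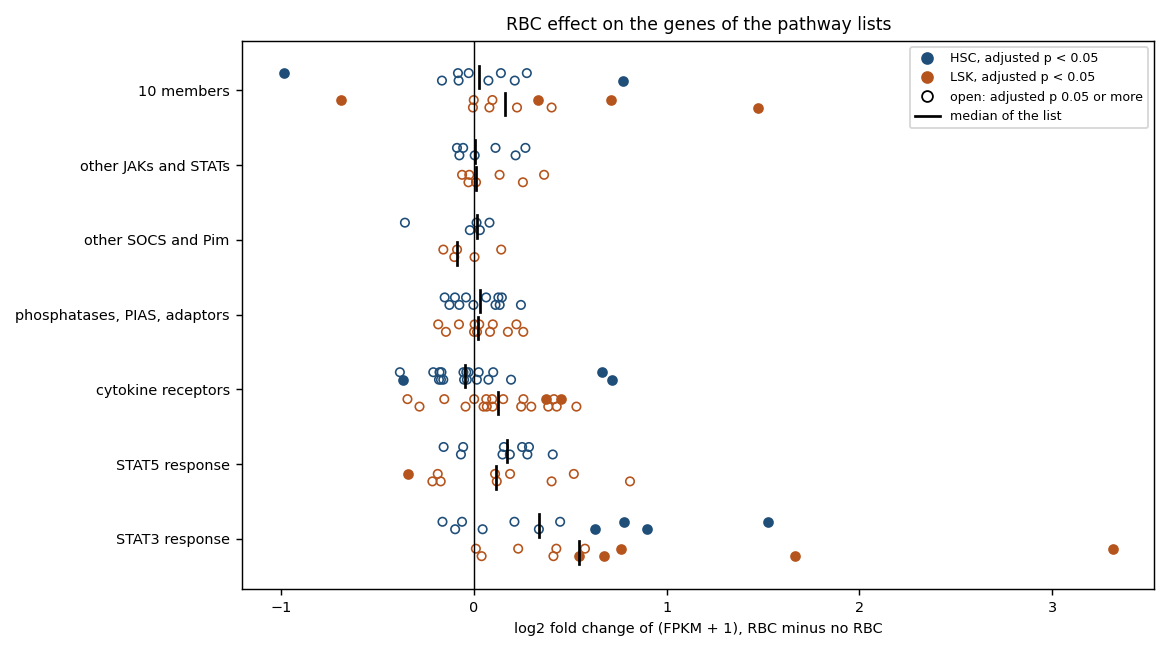
RBC effects on log2(FPKM + 1) (x axis) of the 10 genes and of 6 lists of the pathway (y axis); each circle is 1 tested gene, filled where its adjusted p was under 0.05, and black bars are list medians. Filled circles are most frequent among the STAT3 response genes, with medians of 0.34 in HSCs and 0.55 in LSK cells. Of these 11 genes, 8 lie to the right of 0 in HSCs and 11 in LSK cells. Filled circles are absent from the other JAKs and STATs, the other SOCS and Pim genes and the restraining proteins.

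Markers of other cells and of stimulation also differed between the groups, and their part in the results above was not tested. The 11 neutrophil genes summed to 162 and 254 FPKM in LSK cells alone and to 656 and 431 FPKM with RBCs, and to 14.0 and 10.3 FPKM in HSCs alone and 258 and 46.8 FPKM with RBCs. All 11 were higher with RBCs in LSK cells, where 3 passed, and 9 in HSCs, where 2 passed (S100a8 and S100a9). Monocyte and macrophage genes summed to 399 and 309 FPKM in LSK cells alone and 546 and 663 FPKM with RBCs, and to 440 and 477 FPKM against 378 and 384 FPKM in HSCs. Most of this sum was the lysozyme gene Lyz2, at 312 and 321 FPKM in HSCs alone and 221 and 218 FPKM with RBCs. Of the 6 genes tested, all were higher with RBCs in LSK cells, where 3 passed, and all but Lyz2 in HSCs, where the CSF1 receptor gene Csf1r passed with a log2 fold change of 1.32 (adjusted p = 0.0121). C1qa was at 0 in all libraries and Adgre1 at 0.566 FPKM or less.

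The 8 HSC identity genes summed to 188 and 185 FPKM in HSCs alone and to 149.9 and 151 FPKM with RBCs, and to 101 to 114 FPKM in all LSK libraries. In HSCs all 8 had lower values with RBCs, with a median log2 fold change of -0.26, and Procr passed with -0.52 (adjusted p = 0.0149), while Slamf1 stood at -0.70 (adjusted p = 0.0596). In LSK cells 4 of the 8 were higher with RBCs and none passed. Of these 8, 3 had an unadjusted p under 0.05 in LSK cells, as had 2228 of the 12003 genes tested. Of 9 platelet genes 1 passed in each cell type, the integrin gene Itgb3 in HSCs with 0.88 (adjusted p = 0.013) and the chemokine gene Pf4 in LSK cells with -2.06 (adjusted p = 0.0376), where its control values were 129.6 and 37.8 FPKM and those with RBCs 13.5 and 19.1 FPKM.

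Immediate early genes summed to 433 and 295 FPKM in LSK cells alone and 662 and 700 FPKM with RBCs, and to 517 and 492 FPKM against 844 and 757 FPKM in HSCs. Of the 10 tested, 6 passed in LSK cells, where 3.45% of all genes did, and 4 in HSCs, where 2.53% did. The red cell list was dominated by the carbonic anhydrase gene Car2, at 387 to 426 FPKM in LSK cells and 663 to 776 FPKM in HSCs, which passed for RBCs in neither. Of the others, the alpha-globin gene Hba-a1 rose in both cell types, being at 0.08 to 1.53 FPKM in all controls and at 32.9 to 116 FPKM in all libraries with RBCs, and its near-identical copy Hba-a2, with which it shares fragments, passed in neither. Alas2, the first enzyme of heme synthesis in red cells, rose in HSCs by 1.43 on the log2 scale (adjusted p = 0.0174). The beta-globin gene Hbb-bs passed in the mean over both cell types with 3.18 (adjusted p = 0.0383), but in neither cell type alone. In HSCs with RBCs it was at 0.0075 and 19.1 FPKM, against 0.0123 and 0.0386 FPKM in HSCs alone. The B cell gene Pax5 stayed at or below 0.0863 FPKM and the T cell gene Cd3e at or below 0.0702 FPKM in every library. Other genes of these lists were higher, with Cd79b of the B cell list at 34.1 to 51.0 FPKM and Lck of the T cell list at 10.1 to 15.4 FPKM. Neither Cd79b nor Lck passed for RBCs in either cell type.

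The genes whose log2 values followed those of the called members most closely over the 8 libraries were listed by Pearson's r, as a description, since the points share the 4 groups. For Socs2 these were Ap2s1 (r = 0.995), a clathrin adaptor subunit, Vwf (0.991), the von Willebrand factor gene expressed by platelet-primed HSCs, and Inpp5a (0.991), an inositol phosphatase. Vwf was at 13.4 and 13.7 FPKM in HSCs alone, 12.4 and 11.3 FPKM with RBCs, and 4.90 to 5.91 FPKM in LSK cells. For Socs3 they included Ache (0.990), which encodes acetylcholinesterase, and Vegfa (0.985). Ache was at 3.99 and 4.50 FPKM in HSCs alone, 6.28 and 6.22 FPKM with RBCs, 4.83 and 5.75 FPKM in LSK cells alone and 8.73 and 10.1 FPKM with RBCs.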

How the data were processed

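RNA of CD45-sorted cells was made into full-length cDNA with a SMART-Seq HT kit and into libraries with NexteraXT, and sequenced on an Illumina instrument. The authors deposited 1 FPKM value per gene symbol for each of the 8 libraries, normalized for transcript length and mapped fragments, with replicates kept apart. Their processing notes name TopHat2 2.1.1, Bowtie2 2.2.8, SAMtools 0.1.18, Cuffdiff 2.2.1 and build mm10, and the annotation is not given in the sources used here. FPKM do not state depth. It was estimated from the FPKM steps of low genes with a single transcript, of whose values 68.4% to 74.3% lay within 0.1 of whole fragments. Counting errors cover fragments, not molecules.

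Groups came from the sample titles. Genes were tested if 2 or more libraries had an FPKM of 1 or more, which 12003 did. Their log2(FPKM + 1) values (pseudocount 1) were fitted with limma 3.58.1 (R 4.3.3) as 4 group means with a mean-variance trend, with 4 residual and 5.18 prior degrees of freedom. Coculture was set against culture alone in each cell type, as a mean and as a difference of both, and the cell types were set against each other without and with RBCs. The contrasts share control libraries. Error values after ± are standard errors for log2 fold changes. Replicate numbers were checked for pairing: the differences between replicates 1 and 2 correlated between groups with r from -0.07 to 0.10, so no block was used. Each result was recomputed with other pseudocounts, filters and 3 scalings, with fewer libraries in the fit, with a replicate block, without the trend, without the fold threshold, and without each library in turn.

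The genes and lists were chosen with earlier results of these data known. All 10 genes are named, and of the pathway lists those that passed for RBCs in a cell type and some of those with large differences. Genes of these lists called between the cell types are not all named. Positions are from GENCODE M21 (GRCm38) and promoters from RefSeq. The authors' own comparisons were not used. Some genes and agents are not reported here.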

Additional observations from a re-analysis of the deposited data

How the results depend on the processing

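The 5 calls at 2-fold (Socs3 in LSK cells and in the mean effect, Socs2 between the cell types in both conditions and Socs3 between them with RBCs) kept their direction and an adjusted p under 0.05 in every alternative, as did Pim2 in the 5 comparisons where it passed, but without the second LSK library with RBCs the 2 calls between cell types with RBCs were short of 2-fold (Socs2 at -0.95, Socs3 at 0.91). Counts over all genes moved more. With a pseudocount of 0.1, 485 genes were called between LSK cells and HSCs without RBCs, against 319. When every gene above 0 in any library was tested, 50 were called for RBCs in HSCs (93 otherwise), 70 in LSK cells (121 otherwise) and 2 for the difference of effects (13 otherwise), which also went to 20 with quantile normalization and to 1 with no trend. With no fold threshold, 304, 414, 645, 1707 and 2923 genes and 2, 4, 5, 4 and 6 of the 10 members passed for RBCs in HSCs, in LSK cells, in their mean, and for LSK cells against HSCs without and with RBCs.

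The planned replicate block, the number within each cell type, gave 79 genes called in HSCs, 98 in LSK cells, 89 for the mean and 12 for the difference of effects. It could not give LSK cells against HSCs. A block with the number shared over cell types, chosen after seeing the data, gave 8 for the difference of effects. With the first block the adjusted p was 0.0949 for Stat3 in LSK cells, and 0.0614, 0.0718 and 0.054 for the mean effects on Jak2, Stat3 and Pim1. It changed no other member's side of 0.05 for RBCs. Fits of only the groups compared were not made for the mean and the difference of effects, which use all groups.

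Values near 0 changed sign with the scaling. With libraries rescaled to the same FPKM sum, Pim1 in HSCs was at 0.00683, and in LSK cells Stat5b was at 0.0337 and Socs2 at 0.0297. With median ratio scaling the latter 2 were at 0.0053 and 0.0012, and with quantile normalization at 0.0021 and 0.0065, where the difference of effects on Socs1 was 0.0045. With each library left out in turn, a lone library being assumed to vary like the other groups, genes called ranged from 64 to 119 in LSK cells and from 7 to 14 for the difference of effects, and members called from 0 to 1 in HSCs, where Pim2 passed 2-fold without the second control library (-1.04) or the second RBC library (-1.04), and from 0 to 2 between cell types with RBCs. In the same runs the RBC effect in LSK cells ranged from -0.0249 to 0.186 for Stat5a, -0.0936 to 0.0927 for Stat5b and -0.131 to 0.122 for Socs2, and that in HSCs from -0.00245 to 0.154 for Stat5a, -0.182 to 0.0173 for Stat5b and -0.114 to 0.0609 for Pim1. The mean effect ranged from -0.0912 to 0.0084 for Stat5b and -0.0295 to 0.0468 for Cish, and the difference of effects from -0.111 to 0.101 for Stat5a, -0.181 to 0.0177 for Stat5b and -0.14 to 0.116 for Socs1. LSK cells against HSCs ranged from -0.0666 to 0.145 for Stat5a without RBCs and -0.0549 to 0.15 for Jak2 with them. None of these passed the test. Apart from the constructions named, the cause of each change was not tested.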
